A study of Mus musculus with 12 samples.

Results

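RNA recovered by an anti-HA pulldown was compared with the RNA of the whole tissue it came from, in brain white matter of 3 mice whose chow drew 60% of its kcal from fat (HFD). Members were chosen by their labels: the pulldown (IP) libraries of animals 516, 517 and 676 and the input libraries of the same animals, 6 of the 12 libraries of the series. The other 6 came from animals 489, 555 and 556 whose chow drew 10% of its kcal from fat (CFD), and they entered the fit and served as a comparator. All 6 mice carried the genotype Tie2-Cre:Rpl22-HA, and the study's methods describe the mice as male, without an age for this cross. How long these mice were fed is not given in the sources used here. The methods name the Tie2-Cre strain in different ways in separate places, and no library without Cre was analysed here, so RNA that sticks to the beads without a tag was not measured.

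In RiboTag mice, Cre recombinase switches the last exon of the ribosomal protein gene Rpl22 to a copy that carries a hemagglutinin (HA) tag. Ribosomes of the Cre-expressing cells can then be drawn from a tissue lysate with an anti-HA antibody, together with the messenger RNA they are translating. Messenger RNA engaged by ribosomes is held in such a pulldown, whereas noncoding RNA retained in the nucleus is not a substrate of translation. The Tie2 promoter acts in endothelial cells and also in cells of the blood lineage, so both are sources that the tag can mark.

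The libraries were checked first. Total counts were 29003625 to 33660708 in the HFD pulldowns and 21175017 to 27222491 in their inputs. After removal of the abundant features Rn45s, Lars2 and Mir6236, 19127344 to 26917495 counts remained in these 6 libraries. Animal 676 stood apart. Its input held 133 counts of Xist, an RNA made by the inactive X chromosome, against 7 or fewer in the other 5 HFD libraries, while Ddx3y of the Y chromosome had 755 to 1492 counts in all 6. Its 2 libraries detected 15070 and 16427 genes, against 12823 to 14749 in the other 4. Across all genes tested, the log2 ratio of pulldown over input had an SD of 0.997 in animal 676, while that of animals 516 and 517 was 1.98 and 1.70. The calls and many of the gene lists are therefore given with and without animal 676.

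Genes that define the tissue and the target cells were read per kilobase of gene length. Mbp, which encodes myelin basic protein, had 352 to 412 CPM per kb in the 3 inputs. Camk2a, a kinase of excitatory neurons, had 529 to 830 CPM per kb in the same inputs, so that messages of neurons were present beside those of myelin. Pecam1, an adhesion molecule of endothelium, had 0.0318, 2.48 and 0.824 CPM per kb in the inputs of animals 516, 517 and 676. Its level in the pulldowns was 0.0264 and 0.101 CPM per kb in animals 516 and 517 and 0 in animal 676. Pecam1 was thus near 0 in the input and not above it in any pulldown. Cldn5, the claudin of the blood-brain barrier, had 3.51, 0 and 0 CPM per kb in pulldown and 1.24, 0.728 and 0.945 in input. Bsg, which endothelium and other brain cells make, had 347, 164 and 169 CPM per kb in pulldown and 58.1, 58.4 and 120 in input. These markers of endothelium did not share a direction. In what follows the pulldown is named by how it was made and not by a cell type.

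Of 24060 genes listed, 14253 passed the filter on low counts and were tested. A gene was called when its Benjamini-Hochberg adjusted p in edgeR's quasi-likelihood test was under 0.1, in a fit that held the animal as a block. Between HFD pulldown and HFD input, 20 genes were called, which is 0.14% of those tested. Of these, 18 genes (0.126%) rose in the pulldown and 2 (0.014%) fell, while 531 (3.73%) and 279 (1.96%) genes, 5.68% in all, had an unadjusted p under 0.05 in those directions. The common biological coefficient of variation was 91.9%. The median fitted log2 fold change over all genes tested was -0.23, and over the 8998 genes with a mean of at least 10 CPM it was 0.02. Every fold change below is relative to this scaling.

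The call was sensitive to the fit. No gene was called when the block was removed, when only the 6 HFD libraries were fitted or when a likelihood ratio test was used, with 912, 788 and 1223 genes at an unadjusted p under 0.05. DESeq2 called 416 genes, 157 higher and 259 lower. Without animal 676, 204 genes (1.42% of 14369) were called higher and 30 (0.209%) lower, and all 20 genes were among them. Without animal 517 no gene was called, with 484 at an unadjusted p under 0.05, and without animal 516 there were 2.

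**Figure D1:**
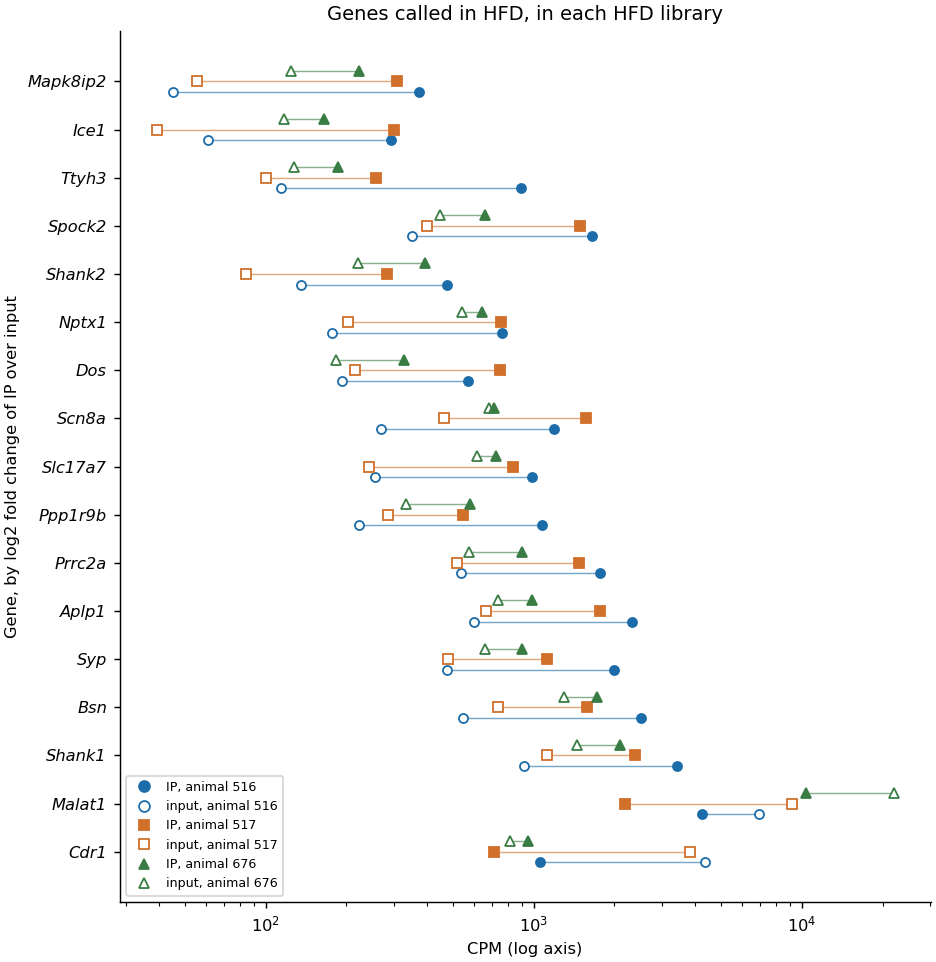
CPM (log axis) of 17 of the 20 called genes in each of the 6 HFD libraries, ordered by log2 fold change, with filled symbols for IP, open symbols for input and 1 symbol shape for each animal. In the upper 15 genes every filled symbol lies to the right of every open one, and the lines of animal 676 are the shortest for most genes.

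The 18 genes that rose were protein coding, and in each of them all 3 pulldowns lay above all 3 inputs. A complete separation upward was seen in 849 of the genes tested (5.96%) and a separation downward in 1163 (8.16%). Their median log2 ratio was 2.09 in animal 516, 1.75 in animal 517 and 0.51 in animal 676. The called genes were abundant, with means over the 6 libraries of 163 to 9154 CPM against a median of 19.1 CPM over all genes tested. The least abundant of them stood at percentile 90.8 of the genes tested. The shares of all genes given beside the lists below are therefore not matched to list members in abundance.

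Of those called, 4 encode proteins of the postsynaptic side of excitatory synapses or scaffolds found there. Shank1, a scaffold of the postsynaptic density on chromosome 7 (44308916 to 44360094, GRCm38), had 3436, 2383 and 2105 CPM in the pulldowns of animals 516, 517 and 676. Its inputs had 918, 1117 and 1448 CPM. The log2 fold change was 1.18 (SE 0.25, adjusted p = 0.072). Shank2, a related scaffold, stood at 475, 284 and 393 CPM in pulldown and 135, 84.0 and 221 CPM in input (log2 fold change 1.47, SE 0.35, adjusted p = 0.0967). Ppp1r9b encodes spinophilin, which ties protein phosphatase to actin in dendritic spines. It had 1074, 545 and 577 CPM in pulldown against 223, 286 and 333 CPM in input (log2 fold change 1.32, SE 0.30, adjusted p = 0.0767). Mapk8ip2, a scaffold of the JNK kinase pathway, had 374, 308 and 222 CPM against 45.1, 55.4 and 124 CPM, with a log2 fold change of 2.14 (SE 0.43, adjusted p = 0.0531). In all of these the animal 676 pair was the closest of the 3.

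The next 4 called genes act on the presynaptic side or at excitatory synapses. Bsn encodes bassoon, a scaffold of the active zone where transmitter is released. Its pulldowns had 2516, 1581 and 1716 CPM and its inputs 543, 735 and 1291 CPM (log2 fold change 1.24, SE 0.27, adjusted p = 0.0767). Syp, the synaptic vesicle protein synaptophysin, had 1990, 1117 and 904 CPM in pulldown and 474, 480 and 656 CPM in input (log2 fold change 1.25, SE 0.29, adjusted p = 0.0815). Slc17a7, the vesicular glutamate transporter of cortical neurons, had 982, 836 and 722 CPM in pulldown and 256, 243 and 616 CPM in input (log2 fold change 1.33, SE 0.31, adjusted p = 0.0926). Nptx1, a secreted pentraxin of excitatory synapses, had 760, 755 and 638 CPM against 176, 203 and 541 CPM (log2 fold change 1.43, SE 0.32, adjusted p = 0.0767). The inputs of animal 676 were the highest of the 3 inputs for each of these 4 genes, and its pulldown the lowest for 3 of them.

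Genes of ion channels and membrane transport formed a further group. Scn8a, a voltage-gated sodium channel, had 1188, 1564 and 713 CPM against 270, 464 and 680 CPM (log2 fold change 1.34, SE 0.31, adjusted p = 0.0926). Its pulldown of animal 676 exceeded the highest input by a log2 ratio of only 0.07. Ttyh3, a membrane protein of the tweety family, had 898, 257 and 186 CPM against 114, 100.2 and 127 CPM (log2 fold change 1.61, SE 0.38, adjusted p = 0.0942). Dos, which encodes a regulator of calcium channels, had 570, 751 and 329 CPM against 193, 215 and 183 CPM (log2 fold change 1.41, SE 0.32, adjusted p = 0.0767).

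Other genes that rose have varied roles. Spock2, a secreted proteoglycan of the extracellular matrix, had the smallest p of the genes that rose. It had 1645, 1486 and 657 CPM in pulldown and 353, 400.0 and 445 CPM in input (log2 fold change 1.57, SE 0.30, adjusted p = 0.0337). Prrc2a, an RNA-binding protein, had 1763, 1469 and 903 CPM against 533, 519 and 575 CPM (log2 fold change 1.30, SE 0.26, adjusted p = 0.0531). Aplp1, a relative of the amyloid precursor protein, had a log2 fold change of 1.27 (SE 0.28, adjusted p = 0.0767), and Ice1, a subunit of a transcription elongation complex, one of 1.92 (SE 0.45, adjusted p = 0.0926).

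Lists of genes with a shared role were then read whole, by counts and medians beside those of all genes tested. The list of postsynaptic scaffolds had 25 members and all were tested. Shank1, Shank2 and Ppp1r9b were called higher and none lower, beside 0.126% and 0.014% of all genes tested. In 13 of the 25 members (52%) all pulldowns lay above all inputs, and in none all below. These shares were 8.96% and 5.83% among genes of at least 10 CPM. The median log2 fold change was 0.60, and 19 members had a positive value. Camk2a had 6154, 5084 and 5760 CPM in pulldown and 2640, 2621 and 4114 CPM in input (log2 fold change 0.89, SE 0.21, adjusted p = 0.11), which missed the threshold. Dlgap1, a guanylate kinase-associated scaffold, had a log2 fold change of 0.60 (SE 0.24, adjusted p = 0.674), and Camk2b, the other main CaMKII subunit, one of 0.22 (SE 0.24, adjusted p = 0.999). The list was therefore uneven. Without animal 676, 5 members were called higher and none lower, beside 1.42% and 0.209% of all genes.

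The list of transmitter release held 22 genes, all tested. Bsn and Syp were called (beside 0.126% of all genes called higher), 7 members (31.8%) were separated upward and none downward, beside 8.96% and 5.83% of genes of at least 10 CPM, and the median log2 fold change was 0.50. Pclo, the active zone partner of bassoon, had 1767, 2113 and 2338 CPM in pulldown and 875, 1230 and 1827 CPM in input (log2 fold change 0.72, SE 0.24, adjusted p = 0.408). Here the input of animal 676 overlapped a pulldown of another animal. Cplx2, a complexin that clamps vesicle fusion, had a log2 fold change of 0.49 (SE 0.24, adjusted p = 0.874), and Vamp2, the SNARE protein of the vesicle, one of 0.24 (SE 0.24, adjusted p = 0.999). Without animal 676, 6 members (27.3%) were called higher, beside 1.42% of all genes.

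Proteins of the membrane skeleton were read next. Spectrins anchor membrane proteins to actin, and ankyrins link them to channels. Of 24 listed spectrin, ankyrin and linker genes, 22 were tested and 1 was called higher, beside 0.126% of all genes. Of the 22, 12 (54.5%) were separated upward and none downward, beside 8.96% and 5.83% of genes of at least 10 CPM. The median log2 fold change of the list was 0.59. Ank3, the ankyrin of the axon initial segment, had 1397, 1396 and 1766 CPM in pulldown against 690, 684 and 1030 CPM in input (log2 fold change 0.94, SE 0.25, adjusted p = 0.239). Map1b, a microtubule-associated protein of axons, had a log2 fold change of 0.66 (SE 0.20, adjusted p = 0.362), Sptbn1, the general form of the β-spectrins, one of 0.71 (SE 0.24, adjusted p = 0.435), and Map1a one of 0.40 (SE 0.23, adjusted p = 0.947). Each of these 3 was also separated upward. Without animal 676, 7 members (31.8%) were called higher, beside 1.42% of all genes.

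Motor proteins, which carry cargo along microtubules and actin, had 16 members tested and none called. Of these, 7 (43.8%) were separated upward and 1 (6.25%) downward, against the same 8.96% and 5.83%, and the median log2 fold change was 0.46. Without animal 676, 2 members (12.5%) were called higher, beside 1.42% of all genes. Of the 16, 11 (68.8%) then lay above in both pulldowns and 1 (6.25%) below, beside 17.2% and 25.8%. Kif1a, a kinesin that carries synaptic vesicle precursors, had 3219, 2418 and 2059 CPM in pulldown and 1427, 1490 and 1724 CPM in input (log2 fold change 0.71, SE 0.23, adjusted p = 0.406). Kif5a, Kif1b and Dync1h1, the heavy chains of other transport motors, had log2 fold changes of 0.43 (SE 0.23), 0.52 (SE 0.23) and 0.57 (SE 0.28). For subunits of glutamate and GABA receptors, 41 of 47 genes were tested and none was called, with 5 separated upward (12.2%, near the 8.96%), 1 downward (2.44%) and a median of 0.29. Without animal 676, 5 of the 41 (12.2%) were called higher and none lower, beside 1.42% and 0.209% of all genes. Both pulldowns then lay above both inputs for 18 (43.9%) and below for 5 (12.2%), beside 17.2% and 25.8%. The median was then 0.55 beside -0.29 for all genes. Among the 4 most abundant subunits in the fit of all animals, Gria2 had a log2 fold change of -0.40 (SE 0.26), Gria1 0.43 (SE 0.27) and Grin2b 0.62 (SE 0.33), so receptor subunits did not share a sign.

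General markers of neurons were split as well. In the list of 18 neuronal markers 1 gene was called (Slc17a7, higher), beside 0.126% of all genes. Of the 18, 3 (16.7%) were separated upward and none downward, beside 8.96% and 5.83%. The median log2 fold change of the list was 0.34, with 12 of 18 positive. Without animal 676, 1 member (5.56%) was called higher, beside 1.42% of all genes. Of the 18, 8 (44.4%) then lay above in both pulldowns and 4 (22.2%) below, beside 17.2% and 25.8%. Snap25, a SNARE protein of the presynaptic membrane, had 8709, 8058 and 7247 CPM in pulldown and 10465, 10556 and 6411 CPM in input (log2 fold change -0.16, SE 0.19, adjusted p = 0.999). Map2, the microtubule protein of dendrites, had 863, 635 and 471 CPM against 1257, 1242 and 722 CPM (log2 fold change -0.71, SE 0.27, adjusted p = 0.598), and Gad2, an enzyme of GABA synthesis, had a log2 fold change of -0.58 (SE 0.28, adjusted p = 0.846). The log2 ratios of the summed CPM of the list were -0.05, -0.10 and 0.17 in the 3 animals. Snap25 alone was about as large as, or larger than, all other members of that sum together in each library. In bulk tissue, fewer cells of a type and less RNA per cell cannot be told apart.

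**Figure D2:**
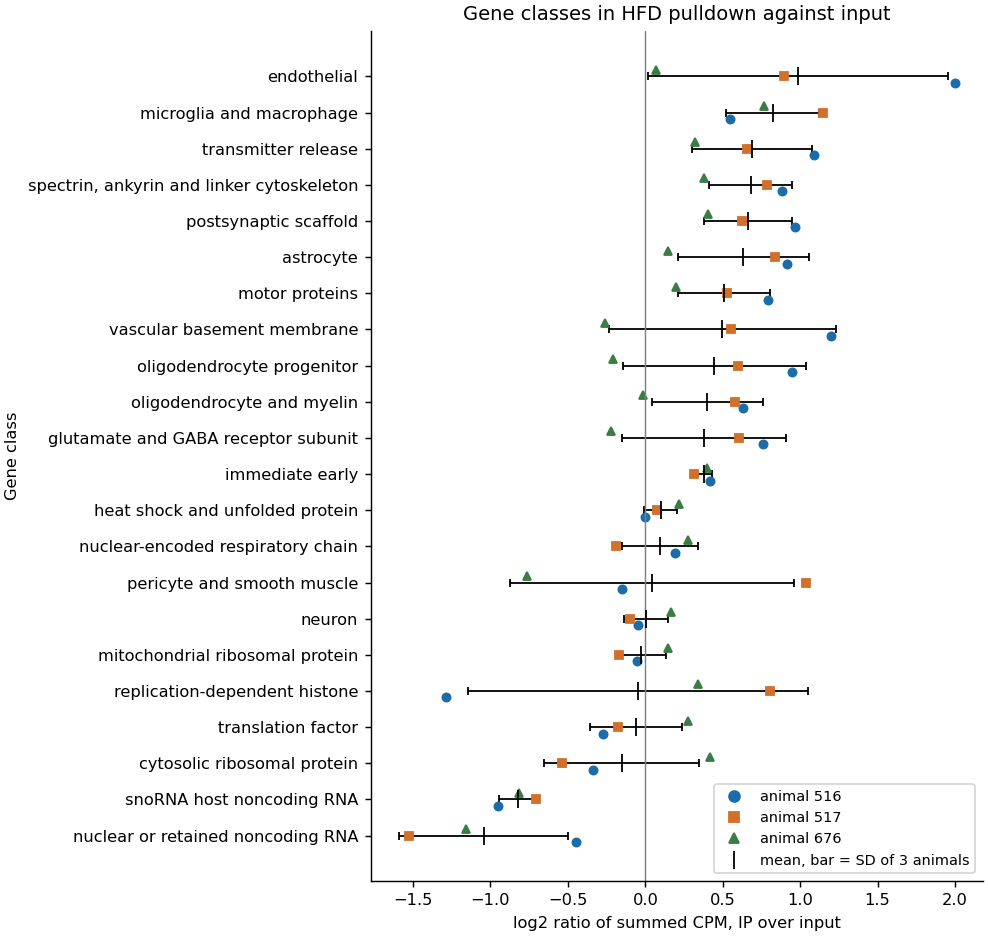
Log2 ratio of summed CPM in pulldown over input for each gene class (22 of 26 lists; those of 5 or fewer genes and the blood lists are left out), with 1 symbol for each HFD animal and a black mark and bar for the mean and SD of the 3 animals. Endothelial and microglial markers, transmitter release, spectrin and ankyrin genes, postsynaptic scaffolds, astrocyte markers, motor proteins, immediate early and heat shock genes lie above 0 in all 3 animals (endothelial by only 0.07 in animal 676 and heat shock by 0.000471 in animal 516), and the 2 lists of noncoding RNA lie below 0 in all 3.

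The genes that fell were not synaptic. Malat1, a long noncoding RNA held in nuclear speckles (chromosome 19, 5795690 to 5802672), had 4230, 2195 and 10372 CPM in the pulldowns of animals 516, 517 and 676 and 6914, 9190 and 22024 CPM in their inputs. It was lower in the pulldown in each of the 3 pairs, by log2 ratios of -0.71, -2.07 and -1.09, although the groups overlapped because animal 676 was high in both fractions. The log2 fold change was -1.28 (SE 0.22, adjusted p = 0.0152). The adjusted p was 0.464 with DESeq2.

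Cdr1 (chromosome X, 61183246 to 61185558) had 1056, 709 and 954 CPM in pulldown and 4354, 3830 and 817 CPM in input (log2 fold change -1.46, SE 0.32, adjusted p = 0.0767). Animals 516 and 517 had log2 ratios of -2.04 and -2.43, and animal 676 had 0.22. A noncoding RNA that is abundant in brain is transcribed from the opposite strand of this locus. Whether reads were counted by strand is not given in the sources used here, so which of the transcripts these reads came from is uncertain.

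The next genes by p among those with a negative fold change were not called. Nmt2, an enzyme that attaches myristate to proteins, had 10.1, 56.7 and 53.7 CPM in pulldown and 147, 195 and 100.2 CPM in input (log2 fold change -2.14, SE 0.55, adjusted p = 0.19). Atf2, a transcription factor, had 208, 229 and 267 CPM against 727, 685 and 345 CPM (log2 fold change -1.26, SE 0.32, adjusted p = 0.19). The gene 1810030O07Rik had 1.48, 5.58 and 12.5 CPM against 53.9, 30.5 and 47.5 CPM (log2 fold change -3.10, SE 0.87, adjusted p = 0.293). All 3 pulldowns lay below all 3 inputs for each of these.

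Nuclear or retained noncoding RNAs were read as a list. Of 18 listed, 17 were tested, and 1 was called lower (Malat1) and none higher, beside 0.014% and 0.126% of all genes. The median log2 fold change of the list was -1.28, and 14 of the 17 had a negative value. Without animal 676 the median was -1.35, with 2 members (11.8%) above in both pulldowns and 7 (41.2%) below, beside 17.2% and 25.8% of all genes. The summed CPM of the list was lower in the pulldown by log2 ratios of -0.45, -1.53 and -1.16, but Malat1 made up most of that sum. Meg3, an imprinted RNA of the brain, had 723, 692 and 1237 CPM in pulldown and 509, 905 and 3808 CPM in input (log2 fold change -0.50, SE 0.32, adjusted p = 0.991), and its sign turned to 0.10 without animal 676. In the list 3 members (17.6%) were separated downward and none upward, beside 8.16% and 5.96% of all genes tested. These 3 members are named here because their values were seen. Neat1, the scaffold of paraspeckles, had 112, 274 and 455 counts in pulldown against 1970, 1168 and 1341 counts in input (log2 fold change -2.60, SE 0.93, adjusted p = 0.503), and Pvt1 and Rmst had 0 to 119 and 1 to 56 counts in pulldown against 212 to 257 and 120 to 390 in input.

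RNA classes were then taken from the RefSeq annotation of GRCm38, which matched 23905 of the 24060 symbols. Of 555 long noncoding RNA genes tested, none was separated upward and 84 (15.1%) were separated downward, against 6.26% and 7.83% of the 13522 protein-coding genes tested. Abundance moved with this difference, since 473 of the 555 had a mean under 10 CPM. Among genes under 10 CPM, 15.9% of long noncoding and 11.8% of protein-coding genes were separated downward, and among genes of at least 10 CPM it was 9 of 82 (10.98%) and 5.78%. Upward separation was seen in 0 of the 82 and in 9.06% of the protein-coding genes of that abundance. The median log2 fold change of the 82 genes was -0.45, against 0.02 for the protein-coding ones. Their median log2 ratios were -0.05, -0.54 and -0.58 in animals 516, 517 and 676, against 0.09, 0.04 and 0.07 for the protein-coding ones. The lack of upward separation among the 82, however, rested on animal 676. Without it, 16 (19.5%) had both pulldowns above both inputs and 27 (32.9%) had both below, beside 17.2% and 25.8% of all genes. Among the 82, 1 was then called in each direction, and the median was -0.23 beside -0.29 for all genes. The values for all genes include those under 10 CPM, whose median was -1.40 in the fit of all animals. Over all long noncoding genes without animal 676, 28 (5.05%) were above and 222 (40%) below.

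The share of all counts that fell on long noncoding RNA genes was 0.913%, 0.619% and 1.73% in the pulldowns of animals 516, 517 and 676, and 1.39%, 1.64% and 3.93% in their inputs. It was lower in each of the 3 pairs, and the groups overlapped only through the pulldown of animal 676. Without Malat1 the shares were 0.552%, 0.412% and 0.593% in pulldown and 0.618%, 0.641% and 1.35% in input, with no overlap. An exact permutation test over 3 pairs cannot go below a two-sided p of 0.25, so no test is given for these shares.

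**Figure D3:**
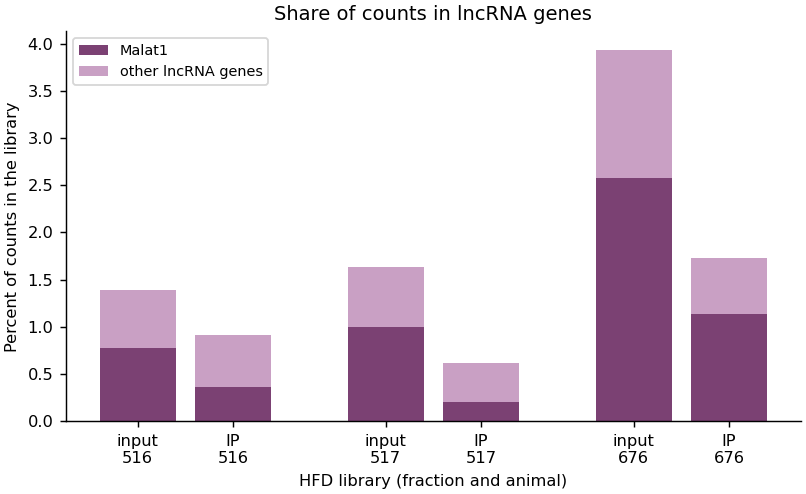
Percent of counts that fell on long noncoding RNA genes in each HFD library, with Malat1 in dark and all other such genes in light. In each animal the IP bar is shorter than the input bar, and animal 676 has the tallest bar of both fractions (3.93% in input and 1.73% in IP).

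Loci of microRNAs gave few reads. In this kind of library such reads come from precursors or overlapping host transcripts and do not measure the mature microRNA. Of 30 such genes tested, 27 were matched to RefSeq sequences, none was called, and the median count summed over the 6 libraries was 92. For 3 of them all pulldowns lay below all inputs (10% of 30), a share near the 8.16% of all genes tested and below the 12.1% of genes under 10 CPM. The mature products of those loci are printed only to identify them, with the seed, bases 2 to 8, in capitals (RefSeq, GRCm38).
mmu-miR-219a-5p: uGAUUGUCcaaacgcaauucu
mmu-miR-690: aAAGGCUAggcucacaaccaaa
mmu-miR-341-5p: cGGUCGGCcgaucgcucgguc
mmu-miR-341-3p: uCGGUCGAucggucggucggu
No seed was shared among them. The Mir219a-2 locus, whose product is made in oligodendrocytes, had 0, 0 and 3 counts in pulldown against 22, 42 and 17 in input. Mir690 had 0 counts in each pulldown and 56, 10 and 31 in input, and Mir341 had 15, 0 and 6 against 19, 79 and 83. At these counts only a near-complete difference could be seen.

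Noncoding RNAs that host small nucleolar RNAs, whose spliced remnants reach the cytoplasm, had 8 of 11 members tested and none called. Their summed CPM was lower in pulldown in all 3 animals, with log2 ratios of -0.95, -0.71 and -0.81. Gas5, the most abundant, had 18.8, 27.1 and 32.3 CPM against 31.6, 52.1 and 71.8 CPM (log2 fold change -0.95, SE 0.70, adjusted p = 0.999). The pulldown and input values of Gas5 overlapped only between animals.

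No gene of the translation and energy machinery was called in the fit of all animals. The 78 cytosolic ribosomal protein genes had a median log2 fold change of -0.22, against -0.23 for all genes and 0.02 for those of at least 10 CPM. None of the 78 was called, and 2 were separated upward (2.56%) and 1 downward (1.28%), beside 5.96% and 8.16% of all genes. Without animal 676 their median was -0.53 beside -0.29 for all genes, 1 was called lower, and 39 of the 78 (50%) had both pulldowns below both inputs beside 25.8% of all genes. The log2 ratios of their summed CPM were -0.34 and -0.54 in animals 516 and 517 and 0.42 in animal 676, so the animals did not share a sign. Rpl4 had 334, 244 and 383 CPM in pulldown and 619, 409 and 303 CPM in input (log2 fold change -0.44, SE 0.30), and Rpl3 and Rpl13 had log2 fold changes of 0.13 (SE 0.36) and -0.39 (SE 0.39). Mitochondrial ribosomal protein genes had a median of -0.32 over 77 genes, with 1 separated upward and 8 downward (10.4%, beside 8.16% of all genes tested). The 79 of 82 nuclear-encoded respiratory chain genes tested had a median of -0.09, and 43 translation factors one of -0.24. Atp5b, the β subunit of ATP synthase, had 1678, 1239 and 1392 CPM against 1578, 1388 and 1108 CPM (log2 fold change 0.08, SE 0.25), and Eef2, the elongation factor, had a log2 fold change of 0.26 (SE 0.29).

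The gene that carries the tag did not pass the test. Rpl22 had 25.4, 99.2 and 57.5 CPM in pulldown and 52.5, 50.5 and 45.3 CPM in input (log2 fold change 0.10, SE 0.69). Rpl22l1, its paralog, had 7.58, 5.37 and 18.6 CPM against 18.6, 39.7 and 26.5 CPM (log2 fold change -1.55, SE 1.20). Tek, whose promoter drives the Cre, had 0, 1 and 43 counts in pulldown and 13, 0 and 76 in input. The level of Tek was thus not higher in the pulldown of any animal by more than 1 count. Ddx3y had 36.4, 41.8 and 28.9 CPM against 52.3, 57.1 and 42.1 CPM (log2 fold change -0.50, SE 0.75).

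Endothelial genes were split. Of 36 endothelial markers 28 were tested and none was called, with a median log2 fold change of 0.06, 1 member separated upward (3.57%, beside 5.96% of all genes tested) and 2 downward (7.14%, beside 8.16%). Without animal 676 the median was 0.53 beside -0.29 for all genes, and 4 members lay above in both pulldowns and 4 below (14.3% each, beside 17.2% and 25.8%). Their summed CPM was 727, 453 and 397 in the pulldowns of animals 516, 517 and 676 and 182, 244 and 378 in the inputs, so that all pulldowns lay above all inputs. Most of that sum in each pulldown was Bsg, which encodes basigin, a membrane protein of endothelium that other brain cells also make. Bsg had 487, 230 and 238 CPM in pulldown and 81.6, 82.0 and 169 CPM in input, with a log2 fold change of 1.52 (SE 0.39, adjusted p = 0.19). It missed the threshold in the fit of all animals, and without animal 676 it was the 1 endothelial marker called (3.7% of 27 tested, beside 1.42% of all genes).

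Several genes that define endothelium had few counts, and others did not. Pecam1 had 2, 8 and 0 counts in pulldown and 3, 175 and 61 in input. Tie1 and Icam2 had 0 or 1 count in each pulldown and 0 to 8 counts in each input. Slc2a1, the glucose transporter of the blood-brain barrier, had 51.0, 55.3 and 31.6 CPM against 26.3, 71.1 and 37.0 CPM (log2 fold change 0.12, SE 0.68). Cd34, a surface protein of endothelium and of blood progenitors, had 6.06, 67.9 and 41.3 CPM against 12.4, 16.9 and 11.5 CPM (log2 fold change 1.02, SE 1.30, adjusted p = 0.999), higher in pulldown in animals 517 and 676 and lower in animal 516. Slco1a4, a transporter of the blood-brain barrier, had 72.7, 0.0832 and 1.92 CPM against 9.78, 0.0469 and 12.3 CPM (log2 fold change 0.38, SE 2.06). The 5 endothelial genes that the study used as markers were no clearer. Cldn5, the claudin of the blood-brain barrier, had 4.97, 0 and 0 CPM in pulldown and 1.75, 1.03 and 1.34 CPM in input, and Egfl7, a secreted vascular factor, had 2.31, 0.0416 and 5.82 CPM against 9.57, 2.30 and 2.90 CPM. Vwa1 had at most 6.24 CPM in a pulldown and 6.65 CPM in an input, Meox1 at most 7.72 and 1.79 CPM, and Foxq1 at most 1.65 and 0.561 CPM. No member of this list was separated in either direction.

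Markers of other cells were examined the same way. Microglia and macrophages, which include blood-lineage cells, had 19 markers tested and none called, with a median log2 fold change of 0.24. Their summed CPM was 684, 729 and 368 in pulldown and 467, 329 and 216 in input, higher in pulldown within each pair, although the groups overlapped. Laptm5, a lysosomal protein of leukocytes, had 124, 113 and 40.3 CPM against 39.6, 16.2 and 13.4 CPM, with log2 ratios of 1.63, 2.76 and 1.55 in the 3 animals (adjusted p = 0.603), and Csf1r, the receptor that microglia need to survive, had a log2 fold change of 0.81 (SE 0.56, adjusted p = 0.999). Of 9 erythroid markers 1 was tested, and of 12 neutrophil and platelet markers 2 were. Their summed CPM was at most 4.53 and 3.30 in any HFD pulldown, so markers of these blood cells were near 0 there. The erythroid sum was 4.53, 0.0832 and 3.22 CPM in pulldown and 6.98, 22.0 and 21.8 CPM in input. All pulldowns thus lay below all inputs for the erythroid sum. Alas2, the erythroid marker that was tested, had 4.45, 0.0416 and 3.18 CPM in pulldown and 6.10, 2.30 and 21.4 CPM in input, which overlapped. Most of the erythroid sum in the input of animal 517 came from genes that did not pass the filter on low counts. The neutrophil and platelet sum was at most 3.08 CPM in any input.

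Pericytes and smooth muscle cells, which wrap vessels, had 10 of 16 markers tested, none called, and a median log2 fold change of -1.01. Their summed CPM was 78.5, 67.0 and 50.7 in pulldown and 87.1, 32.6 and 86.0 in input. Rgs5, a marker of pericytes, had 16.6, 16.5 and 14.9 CPM against 9.25, 8.53 and 20.7 CPM (log2 fold change 0.45, SE 1.54). For the 19 genes of the vascular basement membrane the median was -0.45, and Sparc, the most abundant of them, had 474, 225 and 198 CPM against 378, 162 and 137 CPM (log2 fold change 0.45, SE 0.33, adjusted p = 0.999).

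Glial markers gave more reads. Astrocytes had 16 markers, none called, 4 (25%) separated upward and none downward, beside 8.96% and 5.83% of genes of at least 10 CPM, with a median of 0.38, and summed log2 ratios of 0.91, 0.84 and 0.15. Slc1a2, the main glutamate transporter of astrocytes, had 9114, 8149 and 4382 CPM in pulldown and 4007, 4109 and 4239 CPM in input (log2 fold change 0.74, SE 0.23, adjusted p = 0.362). Glul, glutamine synthetase, and Clu, clusterin, had log2 fold changes of 0.45 (SE 0.25) and 0.89 (SE 0.32). Without animal 676, 2 astrocyte markers were called higher (12.5% of 16, beside 1.42% of all genes).

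For oligodendrocytes and myelin, 20 markers were tested and none was called, with a median of 0.25. In each direction 1 marker (5%) was separated, beside 8.96% upward and 5.83% downward among genes of at least 10 CPM. Without animal 676, 1 marker (5%) was called higher, beside 1.42% of all genes, and the median was 0.59. Both pulldowns then lay above both inputs for 7 of the 20 (35%) and below for 2 (10%), beside 17.2% and 25.8%. Mbp had 3663, 4048 and 2119 CPM in pulldown and 1696, 1986 and 1886 CPM in input (log2 fold change 0.77, SE 0.24, adjusted p = 0.362), and these did not overlap. Mobp and Cnp, other genes of myelin, had log2 fold changes of -0.19 (SE 0.28) and 0.54 (SE 0.30). The 14 markers of oligodendrocyte progenitors had a median of 0.44 and none called. Olig1, their transcription factor, had 182, 181 and 49.8 CPM against 80.2, 90.5 and 37.7 CPM (log2 fold change 0.86, SE 0.45), and Ptprz1, a phosphatase, a log2 fold change of -0.19 (SE 0.33). Without animal 676, 6 of the 14 progenitor markers (42.9%) lay above in both pulldowns and 1 (7.14%) below, with none called and a median of 0.82.

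Genes that respond to handling of the tissue were checked too. The 27 immediate early genes had a median of 0.15 with none called, and the 20 heat shock and unfolded protein genes one of -0.15 with none called. Hsp90ab1, the constitutive HSP90, had 1683, 1599 and 2008 CPM in pulldown and 1575, 1489 and 1635 CPM in input (log2 fold change 0.17, SE 0.23). Replication-dependent histones, whose messages lack a poly(A) tail, had 23 of 67 members tested, none called, and a median of -0.15.

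Composition and length of the called genes were compared with those of all genes tested. The transcripts of the 18 genes that rose had a median GC content of 57.7%, against 49.6% over all genes tested, and 17 of the 18 were above that median. Syp was the exception at 45.4%. Their median length was 4632 bases against 2877, and 16 of the 18 were longer than that median. Malat1 and Cdr1 had a GC content of 42.5% and 44.6%.

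Genes of at least 10 CPM were divided into 5 bins of equal size by GC. The median fitted log2 fold change went from -0.34 in the lowest bin (median GC 41.2%) to -0.12, 0.03, 0.24 and 0.39 in the highest (57.6%). Upward separation went from 2.96% of genes in the lowest bin to 17.5% in the highest, and downward separation from 11.7% to 2.62%. The median log2 ratio of the top bin exceeded that of the bottom by 1.07 in animal 516, 0.86 in animal 517 and 0.28 in animal 676. The order of the ends was thus shared by the 3 animals, with a smaller span in animal 676. These genes share their libraries and are not independent, so no p is given.

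By length, the same genes went from -0.10 in the shortest bin to 0.15 in the longest, a span of 0.25. The span was 0.51 and 0.31 in animals 516 and 517 and -0.11 in animal 676, so the relation with length was not shared by all animals. Over all genes tested the spans of GC and length were both 0.62, and the bins of shorter genes held the less abundant ones. When length and GC were crossed in 3 bins each over all genes tested, short genes of low GC had a median of -0.81, with 1.78% separated upward and 14.1% downward. Long genes of high GC had a median of 0.37, with 16.6% upward and 2.69% downward. The part of GC and length in the results of each list was not tested.

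**Figure D4:**
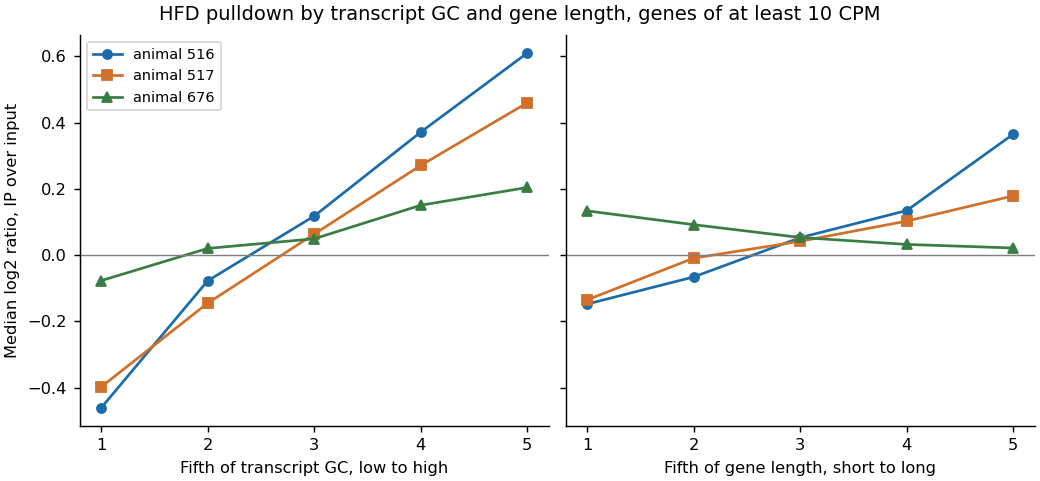
Median log2 ratio of pulldown over input in 5 bins of transcript GC (left) and gene length (right) for genes of at least 10 CPM, with 1 line for each HFD animal. All 3 lines rise with GC, while with length only those of animals 516 and 517 do.

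The 3 features that were left out before scaling were themselves unequal. Rn45s, the precursor of ribosomal RNA, took 19.1%, 17.8% and 17.1% of counts in the pulldowns of animals 516, 517 and 676, and 6.34%, 8.38% and 9.29% in their inputs. Lars2, a nuclear gene for a mitochondrial enzyme, took 0.835%, 0.760% and 0.639% against 0.229%, 0.311% and 0.352%. Mir6236 took 0.0548%, 0.0350% and 0.0412% against 0.00783%, 0.0114% and 0.0286%. All 3 were higher in every pulldown than in any input. With them kept in the table, 24 genes were called in place of 20.

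The HFD result was set beside the same comparison in CFD, with the same model. In CFD, 94 genes (0.66%) were called higher and 38 (0.267%) lower in the pulldown. All 20 genes called in HFD had the same sign in CFD, and 7 were also called there, which is 35% of the HFD list and 5.30% of the CFD list. Among these were Prrc2a, Shank1, Bsn, Ppp1r9b, Malat1 and Cdr1. Syp, by contrast, had a log2 fold change of 0.11 (SE 0.29) in CFD against 1.25 in HFD. For 6 of the 20 genes the difference between diets had an unadjusted p under 0.05, among them Syp at 0.0067. The 20 genes were selected by the HFD fold change that enters this difference, so their count cannot be set against all genes. No gene was called for the difference between diets by edgeR, with a smallest adjusted p of 0.593 and 495 genes (3.47%) at an unadjusted p under 0.05, while DESeq2 called 227. Rn45s, Lars2 and Mir6236 together took 40.4% to 44.2% of the counts in the CFD pulldowns, against 17.7% to 20.03% in the HFD ones, and the part of this difference in the comparison of diets was not tested.

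**Figure D5:**
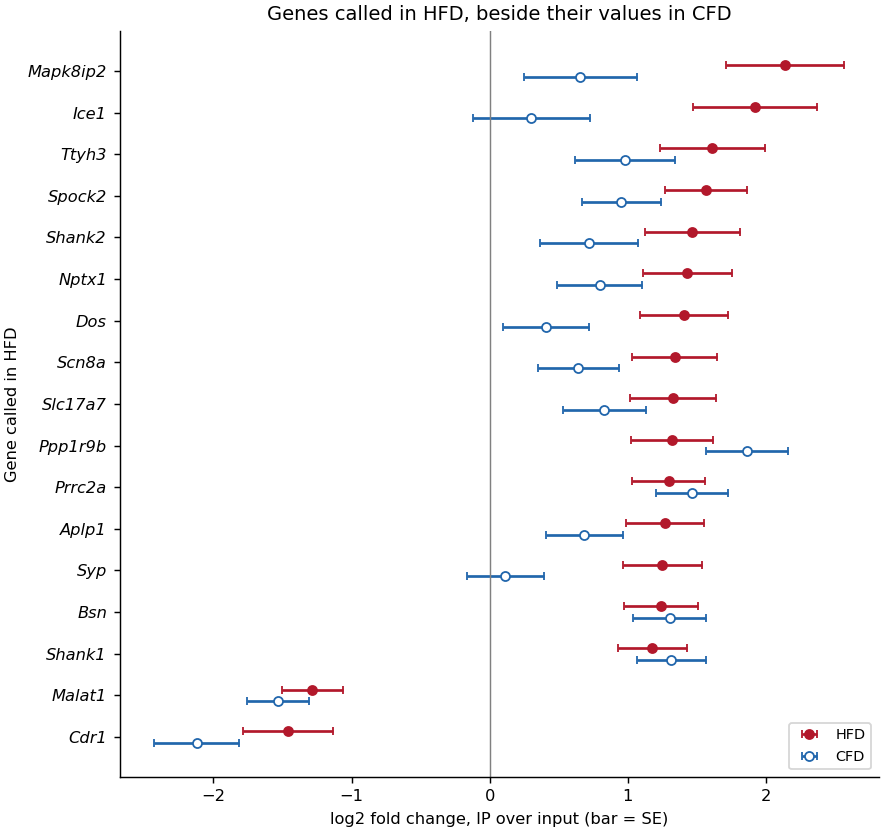
Log2 fold change of pulldown over input, with its SE as a bar, for 17 of the 20 genes called in HFD (filled) and for the same genes in CFD (open). Both symbols of each of the 17 genes lie on the same side of 0, and the open symbols of Ice1 and Syp lie nearest to it.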

How the data were processed

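White matter RNA of Tie2-Cre:Rpl22-HA mice was sequenced after anti-HA pulldown and as input, in 69 bp paired-end reads per the study's methods. The authors aligned reads to mm10 with STAR, HTSeq is also named in the submitters' processing notes, and they deposited whole-number counts per gene, which were not normalized. The labels and the methods name different library kits, so how ribosomal RNA was removed is uncertain. The deposited FPKM values served only to obtain gene lengths. Fold changes and p-values of the authors' own comparisons in the same table were not used.

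Groups and animal numbers came from the labels. Rn45s, Lars2 and Mir6236 were dropped, genes were kept by filterByExpr over 4 groups (minimum count 10, minimum total 15), and libraries were scaled by TMM. CPM were computed on these scaled libraries. In R 4.3.3, edgeR 4.0.16 (glmQLFit and glmQLFTest) fitted all 12 libraries with a fixed animal effect and 1 pulldown effect in each diet, leaving 4 residual degrees of freedom. P-values were adjusted by Benjamini-Hochberg over 14253 genes and called under 0.1, the study's threshold. Standard errors (SE) were derived from the F statistic of each fold change. Ratios of single animals are log2 of CPM plus 0.5. Each animal gave both fractions, so the number pairs them. Deviations of a pair from the group means correlated at 0.0057 to 0.19. For a pulldown and an input of different animals on the same diet they correlated at -0.10 to 0.034, so the ranges overlapped. The p-values set each fold change against the spread estimated over all 12 libraries, from animals of both diets. No 2 libraries of the same group agreed within sampling noise. Gene classes were described without a test. GC content is that of the longest GENCODE transcript (mm10), known for 99.2% of genes tested.

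The members and the gene lists were chosen with earlier results of these data known. Genes named are up to 15 called in each direction by p, called members of the lists, the 4 most abundant members of a list, the lists of pulldown check, study endothelial and abundant genes in full, and the next genes by p where fewer than 5 were called in a direction. Ttyh3 (called), Pecam1, Tie1, Icam2, Neat1, Pvt1, Rmst and the microRNA loci fall outside this and were chosen after their values were seen. Some genes that this rule names are not reported here, while counts and medians include them. Alternatives were no block, the 6 libraries alone, RLE scaling, no filter, a likelihood ratio test, DESeq2 1.42.0, the abundant features kept, a threshold of 0.05 and each animal left out. Counts of class members without animal 676 were added after seeing the data. On simulated counts for this comparison (13659 genes), 2% of 50 genes changed 2-fold, 26% of 50 changed 4-fold and 64% of 50 changed 8-fold were called. The changed genes were drawn only from those with a mean of at least 10 CPM, so the rates do not cover less abundant genes. Of the unchanged genes, 3 were called.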

Additional observations from a re-analysis of the deposited data

Results flagged for a closer look

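The summed CPM of the heat shock and unfolded protein list had log2 ratios of pulldown over input that were all positive in HFD and all negative in CFD. In HFD the mean was 0.098, with 0.08 and 0.22 in animals 517 and 676 and a value within 0.001 of 0 in animal 516. In CFD the ratios were -0.18, -0.23 and -0.48. The difference between the diets was not tested, and no member of the list was called.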

How the results depend on the processing

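The 20 calls in HFD became 0 with no replicate block, 0 with only the 6 HFD libraries, 4 with RLE scaling, 48 with no filter on low counts, 0 with a likelihood ratio test, 416 with DESeq2 (19 of the 20 among them), 2 at an adjusted p under 0.05, and 0 to 234 when each animal was left out. Leaving out animal 517 gave the 0, 516 gave 2, 555 gave 69, 556 gave 45 and 676 gave 234. The 132 calls in CFD became 20 with no replicate block, 68 with its 6 libraries alone, 203 unfiltered, 204 with a likelihood ratio test, 1407 with DESeq2, 58 at 0.05 and 52 to 253 with an animal left out. The 0 calls for the difference between diets became 7 unfiltered, 5 with a likelihood ratio test, 227 with DESeq2 and 1 to 10 with an animal left out. Removing the block, which pairs the fractions of a mouse, also moved the median log2 fold change of all genes in HFD from -0.23 to -0.03. Over 220 values of the 20 called genes the sign never turned, and the call was kept in 86 and lost in 134.

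The endothelial median was -0.86 unfiltered. The long noncoding median was -1.09 without the block and -2.67 to -1.73 with an animal left out. The spans of GC and length over all genes were 0.23 and -0.012 in animal 676 alone. Signs turned for genes of low or uneven counts. Without the block Cldn5 was 0.27, Vwa1 -0.38 and Foxq1 1.40, and Meox1 was -0.13 with DESeq2. With an animal left out, log2 fold changes ranged from -0.28 to 0.38 for Slc2a1, -2.94 to 0.25 for Tek, -0.52 to 1.40 for Vwa1, -6.21 to 8.41 for Meox1, -5.12 to 2.69 for Foxq1, -0.34 to 0.68 for Rpl22 and -0.99 to 0.10 for Meg3. The cause of these changes was not tested. With 3 mice and a coefficient of variation of 91.9%, changes of 2-fold would rarely be called, and loci with few counts could show only near-complete differences.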
